A study of Mus musculus with 8 samples.

Results

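Prenatal ethanol was given to mice at 2 stages of gestation, and the comparison asks whether transcripts of the adult brain differed alike after both. The measure described here is the early-minus-late difference of each probe set, that is, the mean of the early ethanol arrays minus the mean of the early saline arrays, less the same difference in the late arrays. A value above 0 says that ethanol minus saline was more positive after early exposure, and a value below 0 that it was more positive after late exposure. The members were the 21789 probe sets that carried 1 gene symbol (19938 symbols), of 35556 probe sets in all and 23410 that carried any symbol and were tested.

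Gene expression was measured in whole brains of male C57BL/6J mice at postnatal day 70 on Affymetrix Mouse Gene 1.0 ST arrays, which report 1 log2 intensity per probe set. Dams had been injected with ethanol at 2.5 g/kg, 2 doses on each treated day, either on gestational days 8 and 11 (early exposure) or on gestational days 14 and 16 (late exposure). The controls of each timing received saline on the same days, so the injections were shared by every group. Each of the 4 groups had 2 arrays, and each array held a pool of RNA from 3 males of different litters, which hides the spread between mice. The tissue was whole brain, so fewer cells of a type and less RNA per cell cannot be told apart in any value below.

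Gestational days 8 and 11 in the mouse fall between the neural plate and the first wave of neurogenesis, when the forebrain and its midline are patterned. Days 14 and 16 fall in the peak of cortical neurogenesis and migration. The 3 systems that recur below are known from other work. The unfolded protein response raises chaperones of the endoplasmic reticulum when secretory proteins misfold, through the sensors IRE1, PERK and ATF6 and the transcription factor XBP1. Heat shock proteins act as chaperones in the cytosol and mitochondria. The Dlk1-Dio3 domain is an imprinted region whose maternal chromosome makes long RNAs that host many small nucleolar RNAs and microRNAs.

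The arrays of the 2 timings appeared to have been normalized apart (the highest early array median, 6.84, lay below the lowest late one, 7.21), so levels are set side by side only within a timing. Any 2 arrays of a timing correlated at 0.988 or above across probe sets. Receptor genes of the nose, which a brain should barely express, served as the background (1207 probe sets). A probe set counted as above it where its mean at a timing exceeded their 95th percentile, and 10997 members were above it at both timings. Taken array by array, this percentile was at most 6.55 for early exposure and at least 7.27 for late exposure. It was highest, at 7.70, in late ethanol replicate 1, where 48.6% of tested probe sets exceeded it. A gene called at background late was held to this higher cutoff, so the call is no sign of a lower level than early. All 9 measured markers that define brain tissue were above background at both timings. The same was true of 3 of 11 markers of liver and muscle.

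No probe set passed the adjusted threshold. In limma's moderated test with Benjamini-Hochberg adjustment over 23410 probe sets, 0 (0%) had an adjusted p under 0.05, every adjusted p was 1, and 483 (2.06%) had an unadjusted p under 0.05, where 1170.5 would be given by chance alone. An unadjusted p under 0.05 together with a change of at least 1.2-fold, called the nominal thresholds below, was met by 465 probe sets (1.99%), 195 probe sets with a positive difference (0.833%) and 270 with a negative one (1.15%). Of the members, 147 passed with a positive difference and 265 with a negative one, and 115 and 85 of these were above background at both timings. Quantile normalization over all 8 arrays gave 144 positive and 326 negative probe sets, and values relative to the level of each probe set gave 179 and 177. The total of 465 was 233 without late saline replicate 2, 790 without early saline replicate 1, 1082 without late saline replicate 1 and 1284 without late ethanol replicate 2. All genes below are therefore described by their size and their arrays, with no adjusted call behind any of them.

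Most of the members past the nominal thresholds had opposite signs at the 2 timings, 142 of the 147 positive ones and 254 of the 265 negative ones. Selection on a large early-minus-late difference favours opposite signs, so these counts are a description of the selected members. Of the 147 positive ones, 54 passed the nominal thresholds as lower in ethanol in the late arrays alone and 11 as higher in ethanol in the early arrays alone. Over all tested probe sets 0.722% and 0.278% did, and over all members 150 and 28. The larger number from late exposure therefore goes with a larger number of such members to begin with. Negative differences came from both sides, with 60 lower in ethanol in the early arrays alone and 48 higher in ethanol in the late arrays alone. Over all tested probe sets 0.645% and 0.44% were, and over all members 148 and 101. These shares come from the arrays that also made the difference, so they are given as a description. Both timings passed in opposite directions for 3 members, Rian, Vpreb1 and Olfr1251, and of these Rian alone was above background at both timings. For the other 82 and 154 neither timing passed by itself. Over all 23410 probe sets the early and the late differences had a correlation of -0.198, and their medians were -0.020 and -0.0067. This is a description across probe sets, which are not independent and share 8 arrays.

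**Figure D1:**
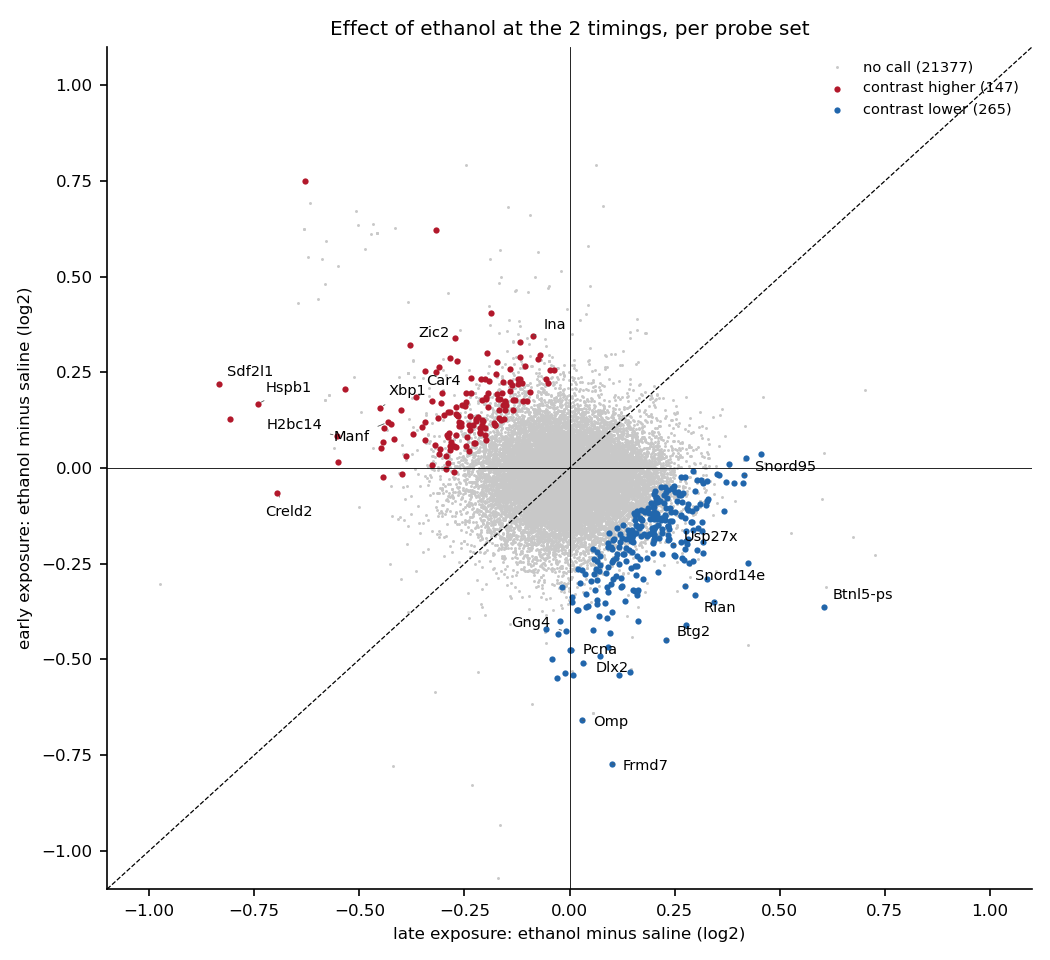
Ethanol minus saline in the early arrays (vertical axis, log2) against the same in the late arrays (horizontal axis, log2) for the 21789 members, with 5 probe sets outside the axes. Red points (147) and blue points (265) passed the nominal thresholds for a positive or a negative early-minus-late difference, and the dashed line marks equal effects. Most coloured points lie at the upper left and lower right, where the 2 timings have opposite signs, which selection on this difference favours.

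The size of the difference went with the level of the probe set. Probe sets were ranked by mean level over the 8 arrays and divided into 10 groups of 2340 to 2342. The median early-minus-late difference was -0.066 in the lowest group, where 23.3% of probe sets lay above 0, and 0.0825 in the highest, where 75.5% did. The late ethanol minus saline difference moved most along this axis, from a median of 0.041 in the lowest group to -0.061 in the highest. The early median stayed between -0.035 and 0.022. For each gene list below, the median is therefore also given relative to the median of the level group of each member. Over all 23410 probe sets 44.8% of the differences were above 0 and 55.2% below.

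**Figure D2:**
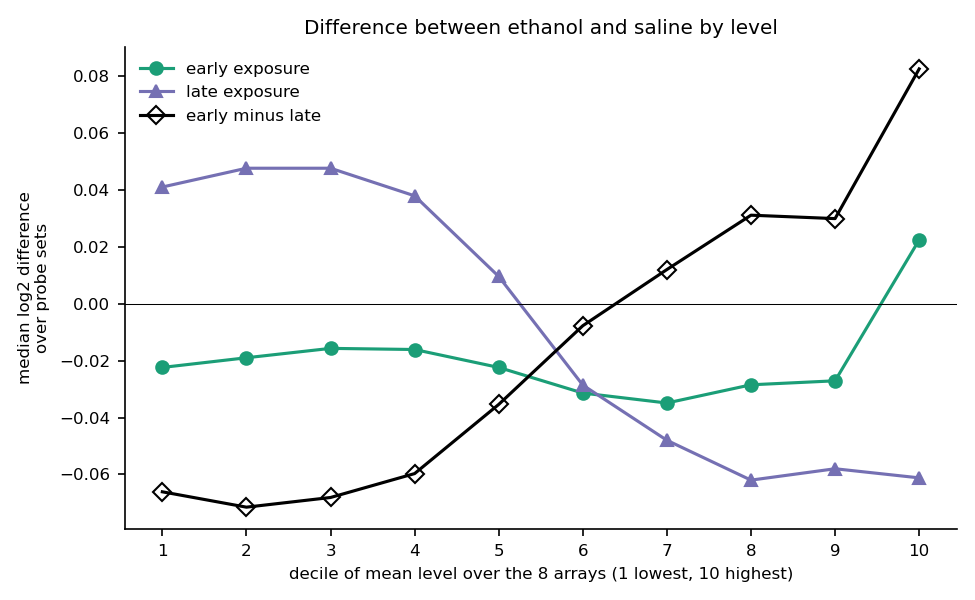
Median log2 difference over probe sets (vertical axis) in each of 10 groups of rising mean level (horizontal axis), for ethanol minus saline after early exposure (green circles), after late exposure (purple triangles) and for early minus late (open diamonds). The open diamonds lie at -0.066 in the lowest group and 0.0825 in the highest.

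Among the 48 gene lists described, that of the unfolded protein response had the most members past the nominal thresholds on the positive side. Of its 30 probe sets (26 genes), 6 passed for a positive early-minus-late difference and 0 for a negative one, against 0.833% of all tested probe sets for a positive one. The 6 were Xbp1, Manf, Sdf2l1, Creld2, Hspa5 and Pdia6, of which the last pair fell outside the rule for naming genes and was named after its values were seen. Late exposure carried the difference. There, 10 of the 30 probe sets were lower in ethanol past the nominal thresholds (0.722% of all tested), and in the early arrays 0 were.

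Xbp1 (probe set 10374035), the transcription factor whose mRNA is spliced by IRE1, was at 10.44 and 10.60 in the early ethanol arrays, 10.45 and 10.28 in early saline, 10.51 and 10.37 in late ethanol and 10.87 and 10.92 in late saline. Both late ethanol arrays lay below both late saline arrays, and the early groups overlapped. Ethanol minus saline was 0.16 early and -0.45 late, a late fold of 0.731, and the early-minus-late difference was 0.61 (SE 0.14).

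Manf, a secreted neurotrophic protein of the endoplasmic reticulum, was at 8.43 and 8.55 (early ethanol), 8.51 and 8.23 (early saline), 8.28 and 8.34 (late ethanol) and 8.71 and 8.77 (late saline). It showed the same pattern, apart late and overlapping early, with a difference of 0.55 (SE 0.15). Sdf2l1, a partner of the chaperones of that compartment, was at 7.57 and 7.68, 7.86 and 6.96, 7.98 and 8.13, and 8.88 and 8.90 in the same order of groups. Its early saline arrays were the farthest apart, and its difference of 1.05 (SE 0.33) was 0.61 without early saline replicate 2. Xbp1 and Manf passed the nominal thresholds without any 1 array, with ranges of 0.53 to 0.69 and 0.41 to 0.69.

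Creld2, a secreted protein induced by this response, differed by -0.07 early and -0.70 late, for an early-minus-late difference of 0.63 (SE 0.22). Hspa5, the main chaperone of the endoplasmic reticulum, was at 10.92 and 11.16 in early ethanol, 11.21 and 10.76 in early saline, 11.25 and 11.19 in late ethanol and 11.66 and 11.68 in late saline, a difference of 0.50 (SE 0.20). Pdia6, a protein disulphide isomerase, had one of 0.57 (SE 0.24). All 3 were lower in both late ethanol arrays than in both late saline arrays and overlapped early. Creld2 missed the nominal thresholds without early ethanol replicate 2 (0.51), early saline replicate 2 (0.45), late ethanol replicate 1 (0.52) or late saline replicate 2 (0.51). Hspa5 and Pdia6 kept them only without early ethanol replicate 1 or early saline replicate 1, and both were lowest without early saline replicate 2 (0.28 and 0.29).

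The promoters of these genes are shown because XBP1 and ATF6 are known to act through the endoplasmic reticulum stress element, spelled CCAAT and CCACG with 9 bases of any kind between them. This motif was searched on both strands in the RefSeq promoter windows of GRCm38.p6, which run from 250 bases before to 50 after each gene start. It was found in 39 of 32851 promoters (0.119%) and by gene in 37 of 27025 (0.137%), and in 8 of the 22 genes of the list that had a window. Of these, Calr, Canx, Dnajc3, Hsp90b1 and Syvn1 did not pass the nominal thresholds. The windows of the 3 genes that held the motif and passed are printed. Each runs 5′ to 3′ on the strand of the gene and ends before the start, with the motif in capitals.
Hspa5 (chr2:34771985-34772083, plus strand): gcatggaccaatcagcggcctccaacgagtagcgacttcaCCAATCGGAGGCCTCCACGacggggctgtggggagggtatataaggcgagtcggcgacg
Pdia6 (chr12:17266451-17266549, plus strand): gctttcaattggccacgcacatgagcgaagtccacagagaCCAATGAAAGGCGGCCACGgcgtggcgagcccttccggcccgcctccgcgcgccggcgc
Creld2 (chr15:88819480-88819578, plus strand): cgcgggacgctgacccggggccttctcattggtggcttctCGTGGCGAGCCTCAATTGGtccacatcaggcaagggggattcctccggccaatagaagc
The first 2 hold the motif in the direction of the gene, beginning 65 and 98 bases before the start, and Creld2 holds it on the opposite strand, beginning 126 bases before. The shorter form, ATTGG and CCACG with 1 base between them, was in 12 promoters of 32851 (0.0365%) and in 2 of the 22, and TGACGTGG was in 0.676% of all and in 0 of the 22. The windows of Xbp1 and Sdf2l1 held none of the 3 motifs, and Manf had no window. A match is a description of these letters and not a site of binding.

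As a whole the unfolded protein response list had a median of -0.0051 after early and -0.16 after late exposure. Its median early-minus-late difference was 0.11, beside -0.025 over all members, and 0.064 relative to the level groups, with 23 of 30 probe sets above 0. The size of the median difference depended on early saline, where the 2 arrays were as far apart as the late groups. The median deviation of the list from its timing mean was 0.10 in early saline replicate 1 and -0.099 in replicate 2, -0.014 and 0.015 in early ethanol, -0.10 and -0.070 in late ethanol, and 0.11 and 0.086 in late saline. Without early saline replicate 2 the median difference was 0.0031, and without replicate 1 it was 0.29. The late groups did not overlap in this score.

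**Figure D3:**
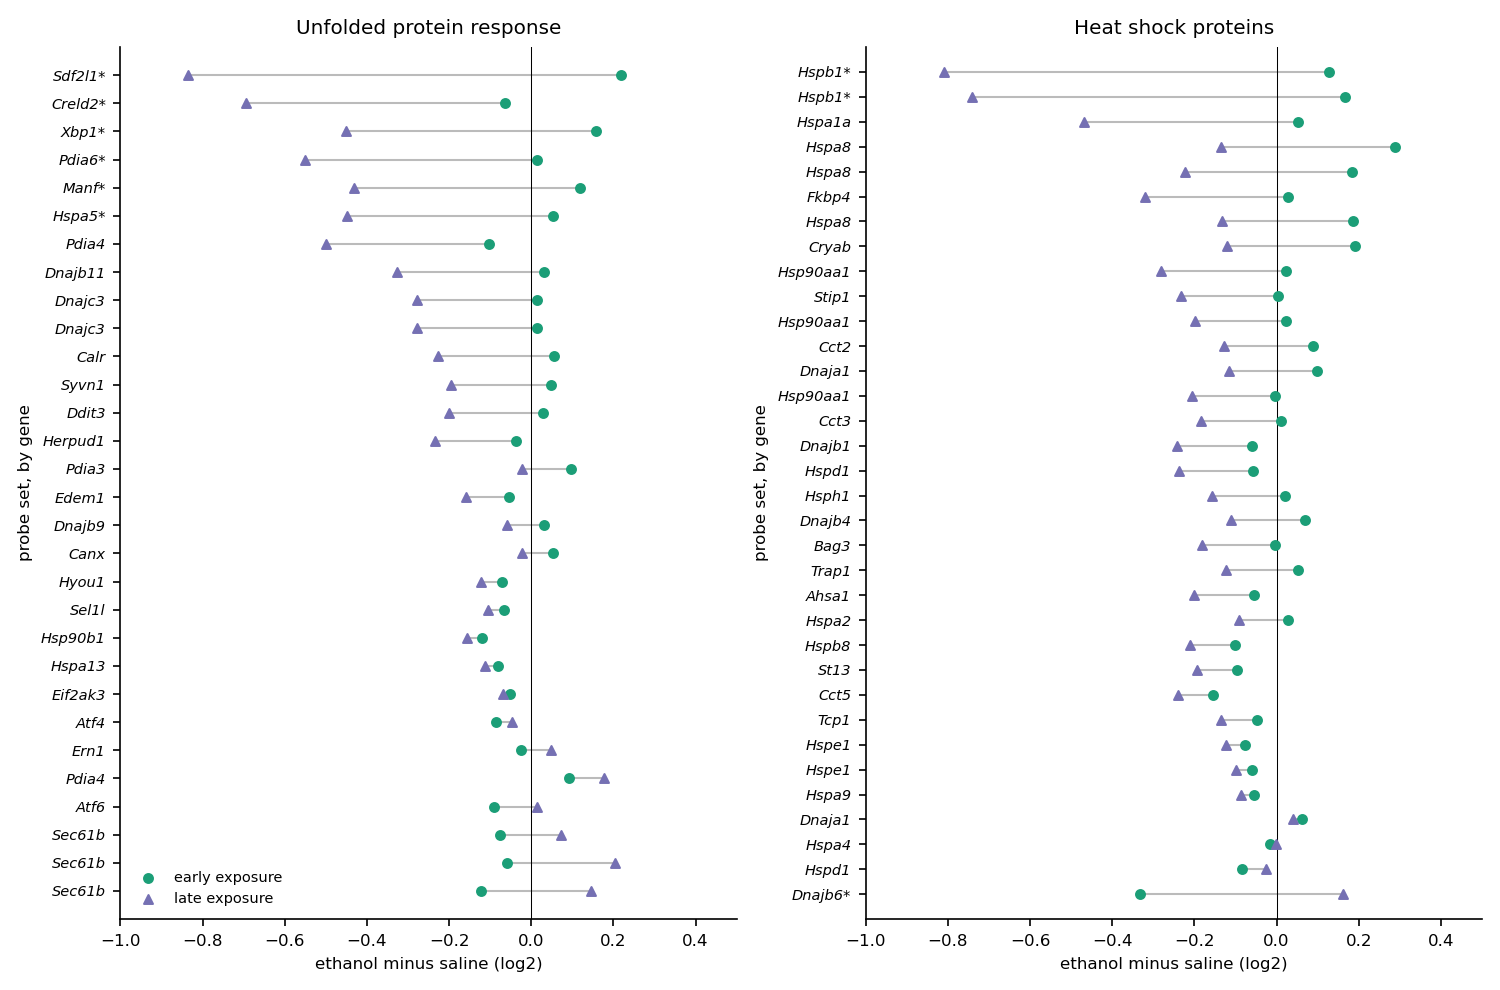
Ethanol minus saline (horizontal axis, log2) after early (green circles) and late exposure (purple triangles) for each probe set (vertical axis, by gene) of the unfolded protein response list, left, and the heat shock list, right, ordered by the early-minus-late difference, with an asterisk where that passed the nominal thresholds. Late values reach -0.83 for Sdf2l1 and -0.81 for Hspb1, and early values gather around 0.

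Heat shock proteins outside the endoplasmic reticulum moved in the same direction as a list. In late exposure 32 of 34 probe sets (26 genes) had a negative ethanol minus saline difference and 24 had both ethanol arrays below both saline arrays, where 15.7% of all tested probe sets did. After early exposure 15 of 34 were negative. The median early-minus-late difference was 0.18, or 0.13 relative to the level groups, and 31 of 34 were above 0.

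Hspb1, a small heat shock protein, was measured by 2 probe sets. Probe set 10408928 was at 7.07 and 6.63 in early ethanol, 6.72 and 6.65 in early saline, 7.89 and 8.10 in late ethanol and 8.53 and 8.95 in late saline. The late groups were apart and the early groups overlapped, and the same was seen with probe set 10526410. Their differences were 0.91 (SE 0.25) and 0.94 (SE 0.26), and both passed the nominal thresholds without any 1 array. No other probe set of the list passed on the positive side, where 0.833% of all tested did. Fkbp4, a co-chaperone of steroid receptors, and Hsp90aa1, the inducible cytosolic HSP90, had differences of 0.35 (SE 0.16) and 0.30 (SE 0.15) that passed only with 1 array left out. For Fkbp4 this was early saline replicate 1 (0.46) or late ethanol replicate 2 (0.48), and for Hsp90aa1 early saline replicate 1 (0.44).

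On the negative side Dnajb6, a co-chaperone, passed at -0.49 (SE 0.20) but was at background at both timings, and it kept its call only without early saline replicate 1, late ethanol replicate 2 or late saline replicate 1. The heat shock motif, spelled GAA, TTC and GAA with 2 bases of any kind between each, searched as above, was in 0.603% of the 32851 promoters and in those of 4 of the 21 genes of this list that had a window. The window of Hspb1 did not hold it. Without early saline replicate 2 the median difference of the list was 0.032, and without early saline replicate 1 it was 0.30.

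Zic2, a zinc finger transcription factor of the dorsal neural tube and midline that is also expressed in cerebellar granule cells, was at 10.36 and 9.95 in early ethanol, 9.93 and 9.73 in early saline, 10.63 and 10.90 in late ethanol and 11.11 and 11.19 in late saline. Ethanol was higher in both early arrays and lower in both late arrays. The differences were 0.32 and -0.38, an early fold of 1.25 and a late fold of 0.769, and the early-minus-late difference of 0.70 (SE 0.21) passed the nominal thresholds without any 1 array (0.50 to 0.90).

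Zic2 was the only member past the nominal thresholds in the list of cerebellar granule and unipolar brush cells, whose median early-minus-late difference of 0.20 was the highest unadjusted median of the 48 lists described, with 18 of 22 probe sets above 0. Relative to the level groups it was 0.14, below the 0.17 of the nasal gland list. Late exposure again carried it, with a median of -0.19 and 20 of 22 probe sets negative. The late arrays were uneven. The median deviation of the list from its timing mean was -0.18 and 0.012 in late ethanol and 0.093 and 0.080 in late saline. Fat2, a protocadherin of granule cells, was at 8.81 and 9.31 in late ethanol and 9.48 and 9.43 in late saline and had a difference of 0.43 (SE 0.21). Il16, whose neuronal form is made in the cerebellum, was similar at 0.41 (SE 0.21). For both genes late ethanol replicate 1 was the low array. Without late ethanol replicate 2 they passed, at 0.69 and 0.65, and without late ethanol replicate 1 the median of the list was 0.086. Etv1, a transcription factor of granule cells and other neurons, had a smaller difference of 0.22 (SE 0.11).

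Several other genes with a positive difference separated the groups at both timings. Car4, a carbonic anhydrase bound to the membranes of brain capillaries, was at 11.13 and 11.04 in early ethanol, 10.95 and 10.86 in early saline, 11.00 and 11.28 in late ethanol and 11.45 and 11.56 in late saline, a difference of 0.55 (SE 0.15). Ethanol arrays were above saline arrays early and below them late. The same held for Zcchc24, a zinc finger protein (0.57, SE 0.16), for Med28, a subunit of the Mediator complex (0.50, SE 0.14), and for Xkr6, a membrane protein (0.43, SE 0.12). It also held for Hacd2, an enzyme of very long chain fatty acid synthesis (0.43, SE 0.13), Cbfa2t3, a transcriptional corepressor (0.40, SE 0.12), and Galnt7, which starts O-linked glycans (0.34, SE 0.11). These 7 genes passed the nominal thresholds without any 1 array.

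The other probe set of Hacd2 had a difference of 0.22, and that of Cbfa2t3 had one of -0.23, so 2 probe sets of the same gene disagreed in sign. Rprl2, an RNase P RNA-like gene, had 0.44 (SE 0.14) and missed the thresholds without early ethanol replicate 2 (0.36) or late saline replicate 2 (0.34). Ywhah, the 14-3-3 eta protein of neurons, was apart in opposite directions with 0.57 (SE 0.22), and its other probe set had 0.30. It kept the thresholds only without early saline replicate 1, late ethanol replicate 1 or late saline replicate 1, and was 0.37 without early saline replicate 2. Apart in opposite directions at the 2 timings were 898 of all tested probe sets (3.84%), and 312 of the 10997 members above background (2.84%), of which 188 were higher in early and lower in late ethanol.

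Myelin genes had positive values early and negative values late. Of 16 probe sets 13 were above 0 in the early comparison (40.2% of all tested) and 14 below 0 in the late one (52.7%), with medians of 0.11 and -0.11. The median early-minus-late difference was 0.17, or 0.096 relative to the level groups, and 4 probe sets passed the nominal thresholds for a positive difference (0.833% of all tested). The median was 0.098 without early saline replicate 2 and 0.26 without early saline replicate 1. Mobp, a myelin-associated basic protein, was at 11.41 and 11.29 in early ethanol, 11.19 and 11.04 in early saline, 11.70 and 11.70 in late ethanol and 11.85 and 11.79 in late saline. Its groups were apart at both timings, in opposite directions, with a difference of 0.35 (SE 0.12).

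Mbp, the myelin basic protein, differed by 0.22 early and -0.12 late, an early-minus-late difference of 0.34 (SE 0.13), and Trf, the transferrin of oligodendrocytes, by 0.38 (SE 0.16). Both separated the groups at each timing. Cldn11, the claudin of myelin, had 0.37 (SE 0.14) with early groups that overlapped. None of the 4 passed without every array. Mobp missed the thresholds without early ethanol replicate 1 (0.29), early saline replicate 2 (0.28) or late saline replicate 1 (0.32). Cldn11 missed them without the same 3 arrays (0.34, 0.27 and 0.30) or late ethanol replicate 1 (0.30). Mbp kept them only without early ethanol replicate 2, early saline replicate 1 or late ethanol replicate 1, and Trf only without early ethanol replicate 2, early saline replicate 1 or late saline replicate 2. The list of oligodendrocyte precursors had a median of -0.019.

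All 20 probe sets of the general neuronal list had an early-minus-late difference above 0, from 0.029 to 0.43, with a median of 0.17 (0.10 relative to the level groups). The median was 0.065 without early saline replicate 2 and 0.28 without early saline replicate 1. Ina, a neuronal intermediate filament, was at 12.76 and 12.62 in early ethanol, 12.43 and 12.26 in early saline, 12.59 and 12.45 in late ethanol and 12.52 and 12.69 in late saline. Here the early arrays were apart and the late arrays overlapped, and the difference was 0.43 (SE 0.15). It missed the nominal thresholds without early ethanol replicate 1 (0.36), early saline replicate 2 (0.35), late ethanol replicate 2 (0.36) or late saline replicate 2 (0.35). Nefl, the light neurofilament, had 0.27 (SE 0.13), Sncg, gamma-synuclein, 0.26 (SE 0.16) and Nefm, the medium neurofilament, 0.17 (SE 0.11), and with all arrays none of these 3 passed. Nefl passed without early saline replicate 1 (0.37) and Sncg without early ethanol replicate 2 (0.39). After quantile normalization over all 8 arrays the median of the list was 0.055.

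Genes of protein synthesis and respiration had positive list medians that depended on the setting, with few members past the thresholds. Of 219 probe sets for cytosolic ribosomal proteins, 174 had a positive early-minus-late difference, with a median of 0.11 (0.059 relative to the level groups) and a late median of -0.068. The median was 0.035 without early saline replicate 2 and 0.027 after quantile normalization. Rpl19, Rpl21 and Rps12 passed for a positive difference with 1 probe set each (0.833% of all tested did), and both probe sets of Rpl36a passed for a negative one (1.15%). Rpl19 was 0.33 (SE 0.12) with the other 6 probe sets of its gene between 0.19 and 0.27. Rpl36a was -0.41 (SE 0.16), opposite to the rest of its list. Ribosomal protein genes have many processed copies in the genome, so probe sets of this family may share signal.

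Both Rpl genes depended on single arrays. Rpl19 kept the nominal thresholds only without early saline replicate 1 or late saline replicate 1, and Rpl36a missed them without early ethanol replicate 2 (-0.38), early saline replicate 1 (-0.37), late ethanol replicate 1 (-0.25) or late saline replicate 2 (-0.37). Respiratory chain and ATP synthase genes had a median of 0.081 over 105 probe sets (0.025 relative to the level groups), which was -0.017 without early saline replicate 2, 0.16 without early saline replicate 1 and 0.0023 after quantile normalization. There only 2 probe sets of Atp5l, a subunit of ATP synthase, passed, both on the positive side (0.833% of all tested). The stronger, at 0.34 (SE 0.13), kept the thresholds only without early saline replicate 1 or late saline replicate 1. Prdx1, a peroxiredoxin that removes hydrogen peroxide, was the only member past the thresholds in the list of alcohol metabolism and antioxidant defence (median 0.075, and -0.0096 without early saline replicate 2 or 0.13 without replicate 1). It had 0.44 (SE 0.14), from 0.14 early and -0.30 late, missed the thresholds without late saline replicate 2 (0.38), and its other probe set had 0.14.

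**Figure D4:**
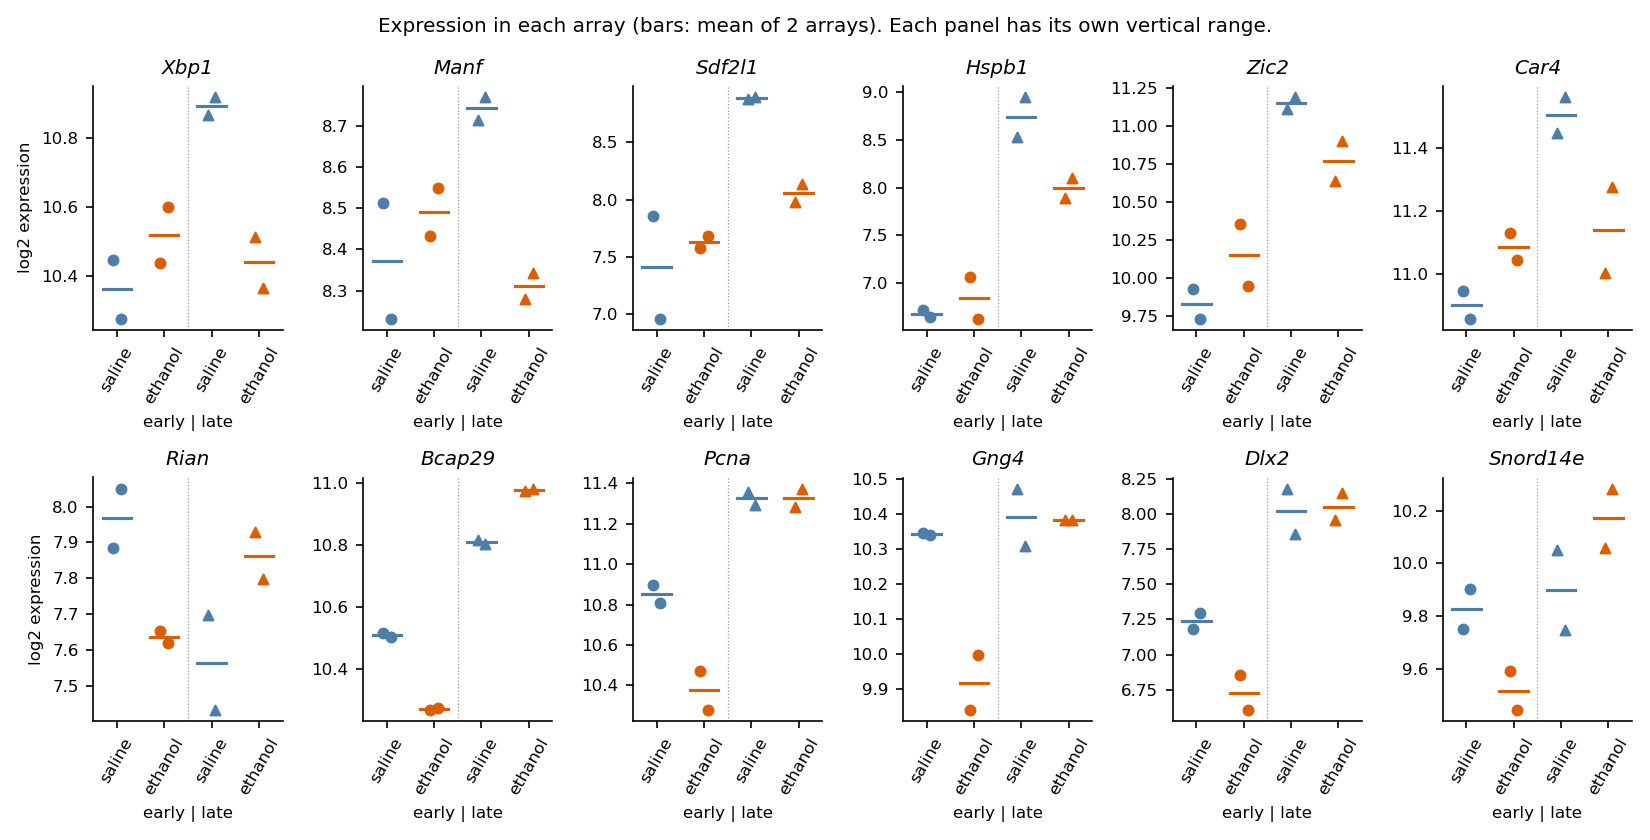
Log2 expression (vertical axis) of 12 genes in each array, saline in blue and ethanol in orange, early arrays as circles and late arrays as triangles, with a bar at the mean of 2 arrays; levels are comparable only on 1 side of the dotted line. In the upper row the late ethanol arrays lie below both late saline arrays for all 6 genes, and in the lower row the early ethanol arrays lie below both early saline arrays for all 6.

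On the negative side the first gene by p above background was Rian, the maternally expressed long RNA of the Dlk1-Dio3 domain that hosts small nucleolar RNAs. Rian (probe set 10398360) was at 7.65 and 7.62 in early ethanol, 7.88 and 8.05 in early saline, 7.93 and 7.80 in late ethanol and 7.70 and 7.43 in late saline. Ethanol was below saline in both early arrays and above it in both late arrays. The differences of -0.33 and 0.30 (folds of 0.794 and 1.23) each passed the nominal thresholds within their own timing, and the early-minus-late difference was -0.63 (SE 0.16). It passed without any 1 array, between -0.76 and -0.50.

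Its neighbours in the domain did not share this pattern as a list. Of 45 probe sets of the Dlk1-Dio3 list, 20 had a positive and 25 a negative early-minus-late difference, with a median of -0.049 (-0.015 relative to the level groups). It was -0.10 without early ethanol replicate 1 and 0.041 without late saline replicate 2. Both timings had positive medians of ethanol minus saline, 0.061 early and 0.10 late, and 19 of 45 had both late ethanol arrays above both late saline arrays, against 12.7% of all tested. Only 21 of the 45 were above background at both timings. The median deviation of the list from its timing mean was 0.076 and 0.018 in late ethanol and 0.029 and -0.13 in late saline. The late groups overlapped in this score, and late saline replicate 2 was the low array. Meg3, the long RNA that begins the maternal transcripts of the domain, was at 11.89 and 11.81 in early ethanol and 11.63 and 11.79 in early saline, and at 11.88 and 11.79 in late ethanol and 11.78 and 11.75 in late saline. Ethanol was above saline at both timings, and the difference was 0.07 (SE 0.12), which turned negative under other settings given in the closing section. Mir679, a microRNA of the domain, had -0.16 (SE 0.29) and overlapped at both timings, and its sign was positive without late ethanol replicate 1 or late saline replicate 2.

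Mir412 was the only other member of the domain past the thresholds (-0.41, SE 0.14), at background at both timings, and it missed them without early ethanol replicate 2 (-0.29), early saline replicate 1 (-0.38), late ethanol replicate 2 (-0.38) or late saline replicate 2 (-0.37). Mir136 had -0.40 (SE 0.18), also at background, and passed only with 1 array left out, which could be early ethanol replicate 2, early saline replicate 2, late ethanol replicate 1 or late saline replicate 1 (-0.54 to -0.48).

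MicroRNAs outside the domain lay below 0 as a list. Of 266 probe sets 209 had a negative early-minus-late difference, where 55.2% of all tested did, with a median of -0.12. The median was -0.049 without late ethanol replicate 1 and -0.19 without late saline replicate 1. The median deviation of the list from its timing mean was 0.10 and -0.025 in late ethanol and 0.021 and -0.098 in late saline. Only 55 of the 266 were above background at both timings, and the median relative to the level groups was -0.059. The list passed the nominal thresholds 6 times on the negative side (Mir342, Mir186, Mir375, Mir451a, Mir326 and Mir34b) and once on the positive side (Mir692-1), beside 1.15% and 0.833% of all tested probe sets. Mir342 and Mir186 were above background at both timings. Their mature sequences, and those of Mir412, are shown because they passed and because the seed sets which targets a microRNA can pair with. The arrays measure the transcript around the hairpin and do not separate the 2 arms. Capitals mark the seed, bases 2 to 8.
mmu-miR-342-5p: aGGGGUGCuaucugugauugag
mmu-miR-342-3p: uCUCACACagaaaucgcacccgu
mmu-miR-186-5p: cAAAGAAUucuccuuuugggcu
mmu-miR-186-3p: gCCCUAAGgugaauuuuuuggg
mmu-miR-412-5p: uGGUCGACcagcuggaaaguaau
mmu-miR-412-3p: uUCACCUGguccacuagccg
The sequences are those of RefSeq on GRCm38.p6. No seed was shared among the 6, and of 1679 mature names in the table only the seed of mmu-miR-412-3p was held by a second one.

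Mir342 was at 7.46 and 7.28 in early ethanol, 7.39 and 7.55 in early saline, 8.06 and 7.99 in late ethanol and 7.78 and 7.67 in late saline. Late ethanol was above late saline and the early arrays overlapped, for a difference of -0.40 (SE 0.14). Mir186 was apart in opposite directions, lower in early and higher in late ethanol, with -0.48 (SE 0.19). Mir342 missed the thresholds without early ethanol replicate 2 (-0.31), early saline replicate 2 (-0.33), late ethanol replicate 1 (-0.37) or late saline replicate 2 (-0.35). Mir186 kept them only without early ethanol replicate 2, late ethanol replicate 2 or late saline replicate 1, and was -0.30 without early ethanol replicate 1.

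Small nucleolar RNAs guide chemical changes of ribosomal RNA. Of 56 probe sets outside the imprinted clusters, 42 had a negative early-minus-late difference (55.2% of all tested), with a median of -0.088 (-0.073 relative to the level groups), and 3 passed the nominal thresholds on that side (1.15% of all tested). The median was -0.031 without early saline replicate 1 and -0.22 without early saline replicate 2. Snord14e was at 9.59 and 9.44 in early ethanol, 9.75 and 9.90 in early saline, 10.06 and 10.28 in late ethanol and 10.05 and 9.75 in late saline. It was lower in early and higher in late ethanol, with a difference of -0.58 (SE 0.18) that passed without any 1 array. This RNA lies within an intron of the heat shock gene Hspa8, whose 3 probe sets pointed the other way, with early differences of 0.18 to 0.29 and late ones of -0.22 to -0.13.

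Snora44 had -0.68 (SE 0.22), with early values of 7.59 and 7.27 in ethanol and 8.15 and 7.78 in saline, and was at background late. It missed the thresholds without early ethanol replicate 2 (-0.52), early saline replicate 1 (-0.49) or late ethanol replicate 1 (-0.55). Snord95 had -0.44 (SE 0.15) from the late arrays, where ethanol was at 8.33 and 8.58 and saline at 8.13 and 7.95, and missed them without early ethanol replicate 2 (-0.41), late ethanol replicate 2 (-0.31) or late saline replicate 2 (-0.34). The proteins of the snoRNA particle had a median of -0.059 over 21 probe sets and 0 past the thresholds. No probe set with 1 symbol named the Snord115 or Snord116 clusters.

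Pcna, the sliding clamp of DNA replication, was read by 2 probe sets that gave nearly the same values. Probe set 10487930 was at 10.47 and 10.28 in early ethanol, 10.89 and 10.81 in early saline, 11.28 and 11.37 in late ethanol and 11.36 and 11.29 in late saline. Early ethanol was below early saline in both arrays and the late groups overlapped, so that ethanol minus saline was -0.48 early (a fold of 0.719) and 0.00 late. The early-minus-late difference was -0.48 (SE 0.13), it was -0.48 (SE 0.14) for the other probe set, and both passed without any 1 array.

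Of the other genes of the replication list only Fen1 passed, which made 3 probe sets of the list on the negative side (1.15% of all tested). Over the 35 probe sets of DNA replication and the cell cycle the median was -0.044, and 0.00072 relative to the level groups. Fen1, the flap endonuclease that acts with the clamp, had -0.26 (SE 0.11) but was at background at both timings, and it kept the thresholds only without late saline replicate 1. Pold1, the catalytic subunit of DNA polymerase delta, had -0.39 (SE 0.18) and passed only without early ethanol replicate 2 (-0.54) or early saline replicate 1 (-0.53). Of the replication-dependent histones H2bc14 passed in the other direction, at 0.64 (SE 0.15), with late values of 6.78 and 6.75 in ethanol and 7.23 and 7.40 in saline. Its late mean was at background, and it passed without any 1 array.

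The olfactory bulb and Dlx lists had 4 members each past the nominal thresholds on the negative side (1.15% of all tested) and 0 on the positive side. Of 19 probe sets for projection and local neurons of the olfactory bulb, all 19 had a negative ethanol minus saline difference early (59.8% of all tested did) and 15 late (52.7%). Early and late medians were -0.18 and -0.059, and the median early-minus-late difference of -0.16 was the lowest unadjusted median of the 48 lists. Relative to the level groups it was -0.11, and the lists of the snoRNA particle and of the Dlx family, both at -0.12, lay lower. Without late saline replicate 1 the median was -0.25. The 4 that passed the nominal thresholds were Gng4, Syt10, Tbx21 and Doc2g. Gng4, a G protein gamma subunit, was at 9.84 and 10.00 in early ethanol, 10.35 and 10.34 in early saline, 10.38 and 10.38 in late ethanol and 10.47 and 10.31 in late saline. It was low in both early ethanol arrays alone, with a difference of -0.42 (SE 0.13) that passed without any 1 array.

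Syt10, a synaptotagmin of bulb neurons, had -0.55 (SE 0.18), Doc2g, a gene of mitral and tufted cells, -0.52 (SE 0.21), and Tbx21, a transcription factor of those cells, -0.34 (SE 0.12). All 3 were below saline in both early ethanol arrays and overlapped late, where Tbx21 was at background. Syt10 missed the thresholds without early ethanol replicate 1 (-0.44), early saline replicate 1 (-0.46) or late saline replicate 2 (-0.39). Tbx21 missed them without early saline replicate 2 (-0.32), late ethanol replicate 1 (-0.28) or late saline replicate 2 (-0.30). Doc2g kept them only without early ethanol replicate 2 and was -0.26 without early ethanol replicate 1.

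Among Dlx genes and other interneuron transcription factors, 13 of 18 probe sets had a negative difference, with a median of -0.11 (-0.12 relative to the level groups), and 4 passed. Dlx2, a homeobox factor of GABAergic precursors, was at 6.86 and 6.61 in early ethanol, 7.18 and 7.30 in early saline, 7.96 and 8.15 in late ethanol and 8.18 and 7.86 in late saline. Its neighbour Dlx1 and its relative Dlx6 had the same pattern of low early ethanol and late overlap. The differences were -0.54 (SE 0.19), -0.52 (SE 0.21) and -0.48 (SE 0.14), and that of Meis2, a cofactor homeobox protein of striatum and bulb, was -0.33 (SE 0.13). Dlx6, at background late, passed without any 1 array. Dlx2 missed the thresholds without early ethanol replicate 2 (-0.42), early saline replicate 2 (-0.49), late ethanol replicate 2 (-0.44) or late saline replicate 2 (-0.38). Dlx1 kept them only without early ethanol replicate 2, early saline replicate 1 or late saline replicate 1, and Meis2 only without early ethanol replicate 2 or early saline replicate 1. Without late saline replicate 2 the median of the list was -0.047. Interneuron neuropeptides and enzymes had a median of 0.038 and 0 of 15 past the thresholds.

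Markers of nasal tissue did not move as one. In early ethanol minus saline, 16 of 19 probe sets of the olfactory sensory neuron list and 7 of 17 of the nasal gland list were below 0, where 59.8% of all tested were. Omp, the marker protein of olfactory sensory neurons, was at 6.75 and 7.05 in early ethanol and 7.39 and 7.73 in early saline and at background in the late arrays, with a difference of -0.69 (SE 0.20). Stoml3, a stomatin of those neurons, had -0.97 (SE 0.52) and did not pass with all arrays. It passed without early ethanol replicate 2 (-1.30), early saline replicate 1 (-1.44) or late ethanol replicate 1 (-1.37). Of the 19 probe sets of the olfactory sensory neuron list 16 had a negative early-minus-late difference (55.2% of all tested) and 6 were above background at both timings. Omp alone passed, on the negative side (1.15% of all tested).

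The nasal gland list was mixed. Of its 17 probe sets 11 had a positive and 6 a negative difference, from -0.90 to 4.11, and 2 passed on the positive side (0.833% of all tested). The median of 0.099 was 0.016 without early ethanol replicate 1 and 0.18 without early ethanol replicate 2. Bpifb9b, a secreted protein of those glands, was at 11.75 and 9.34 in early ethanol, 7.09 and 6.43 in early saline, 6.71 and 6.41 in late ethanol and 6.34 and 7.44 in late saline. Early ethanol lay above early saline and the late groups overlapped, and the 2 early ethanol arrays differed by more than 2 log2 units, so the difference of 4.11 (SE 0.96) rested on unequal arrays. Bpifb9a had 2.62 (SE 0.84), and 1.45 without early ethanol replicate 1. Obp2a, an odorant binding protein, had 1.58 (SE 0.94) and was at 8.32 in early ethanol replicate 1, and at 5.63 in replicate 2 and 5.49 and 5.28 in early saline. It passed only without early ethanol replicate 2 (2.93). None of the 17 probe sets of the nasal gland list was above background at both timings. The median deviation of that list from its timing mean was 0.068 and -0.050 in early ethanol, -0.15 and -0.043 in early saline and between -0.042 and 0.039 in the late arrays. For the olfactory bulb list it was -0.17 and -0.12 in early ethanol, 0.18 and 0.12 in early saline, and between -0.055 and 0.086 late. The part of nasal tissue in the values of olfactory bulb genes was not tested.

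More of the first 15 negative genes separated the groups at both timings in opposite directions. Bcap29, a membrane protein of the endoplasmic reticulum that sorts cargo, was at 10.27 and 10.27 in early ethanol, 10.52 and 10.50 in early saline, 10.97 and 10.98 in late ethanol and 10.82 and 10.80 in late saline. In each group its replicates lay close together, with an SD of at most 0.011, and it had a difference of -0.41 (SE 0.10) that stayed between -0.42 and -0.40 without any 1 array. Usp27x, a deubiquitinase, had -0.45 (SE 0.12), Nkain3, a partner of the sodium pump, -0.37 (SE 0.11), Ppp3cc, a catalytic subunit of calcineurin, -0.36 (SE 0.11), and Stxbp6, a SNARE-binding protein, -0.36 (SE 0.11). Dnmt3aos, a transcript antisense to the DNA methyltransferase gene Dnmt3a, had -0.40 (SE 0.12), from -0.11 early and 0.29 late. Whether this signal is kept apart from the sense gene was not tested.

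Ms4a15 and Tmem42, which encode membrane proteins, had -0.53 (SE 0.15) and -0.56 (SE 0.17), mostly from lower values in early ethanol. Btnl5-ps, a butyrophilin-like pseudogene, was at 10.30 and 9.77 in late ethanol and 9.62 and 9.24 in late saline, and had -0.97 (SE 0.29), while the other 2 probe sets of this symbol ran from -0.34 to 0.17. Sfmbt1, a Polycomb-related protein, had -0.46 (SE 0.14), with -0.21 at its other probe set. Adamts3, a protease that trims procollagen, had -0.54 (SE 0.17) at 1 of 16 probe sets, and the rest ran from -0.32 to 0.21. These genes also passed without any 1 array. Frmd7, a FERM domain protein of neurons, had -0.87 (SE 0.30) and missed the thresholds without early saline replicate 2 (-0.71), with a value of -0.51 without early ethanol replicate 1. Of the 30 probe sets first by p, 15 in each direction, 13 positive and 15 negative ones passed the nominal thresholds without any 1 array. They were ranked by p on these same arrays, which favours this, so it is no separate support. Of the 68 probe sets past the thresholds that are described with their values here, 34 did.

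Immediate early genes, which neurons switch on within minutes of activity, were split. Their median was 0.0028 over 22 probe sets, with 11 above and 11 below 0. Btg2, an antiproliferative factor, was at 8.26 and 8.11 in early ethanol and 8.55 and 8.72 in early saline, with a difference of -0.68 (SE 0.24). Npas4, a transcription factor of active synapses, had -0.56 (SE 0.24), and Egr3, another one, 0.43 (SE 0.14). Btg2 missed the thresholds without early ethanol replicate 2 (-0.60), early saline replicate 2 (-0.59), late ethanol replicate 2 (-0.46) or late saline replicate 2 (-0.48). Npas4 kept them only without early ethanol replicate 1, late ethanol replicate 1 or late saline replicate 1. Egr3 missed them without early ethanol replicate 1 (0.36), early saline replicate 2 (0.31) or late saline replicate 1 (0.37).

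Of the 24 probe sets for DNA methylation writers, erasers and readers 18 had a negative difference, with a median of -0.068, which was -0.12 without early ethanol replicate 1 and -0.014 without late saline replicate 2. Mbd4, a glycosylase that binds methylated DNA and repairs its mismatches, was the only one past the thresholds at -0.44 (SE 0.15), was at background late and missed them without early ethanol replicate 2 (-0.41), early saline replicate 2 (-0.43), late ethanol replicate 2 (-0.34) or late saline replicate 2 (-0.31). In brain endothelium and pericytes (median -0.050), Mfsd2a, a lipid transporter of the blood-brain barrier, had 0.38 (SE 0.14), and Abcg2, a drug efflux pump of the same cells, -0.31 (SE 0.13), so 2 markers of a cell type pointed in opposite directions. Mfsd2a kept the thresholds only without early ethanol replicate 2, early saline replicate 1 or late ethanol replicate 2, and Abcg2 only without late saline replicate 1.

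The remaining lists, apart from the markers that define brain tissue (0.16), had medians between -0.10 and 0.12. Glucocorticoid-responsive genes had 0.12 with 0 of 19 past the thresholds, mitochondrial ribosomal proteins 0.082, Purkinje cells 0.079, astrocytes 0.072 and circadian genes 0.070. These values depended on single arrays. Without early saline replicate 2 the glucocorticoid median was 0.018 and that of astrocytes -0.039, without late ethanol replicate 1 the mitochondrial ribosomal and Purkinje medians were 0.0047 and -0.045, and without early ethanol replicate 1 the circadian median was -0.087. Cortical projection neurons, striatal neurons, microglia and the imprinted coding genes lay between -0.018 and 0.026, with 0 past the thresholds in each. The retinoic acid and Sonic hedgehog pathways, which pattern the early embryo, had -0.033 and -0.048, also with 0 past. Blood and meningeal genes had -0.10 and -0.093. Of the 14 probe sets of genes singled out in the study, 0 passed. Otx2, a homeobox factor of choroid plexus and midbrain, had 0.30 (SE 0.15), with a late difference of -0.29 that passed within that timing, and the early-minus-late difference passed only without late ethanol replicate 2 (0.45). Apoe, a lipid carrier made by astrocytes, had 0.19 (SE 0.12) and Ghr, the growth hormone receptor, -0.20 (SE 0.12).

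**Figure D5:**
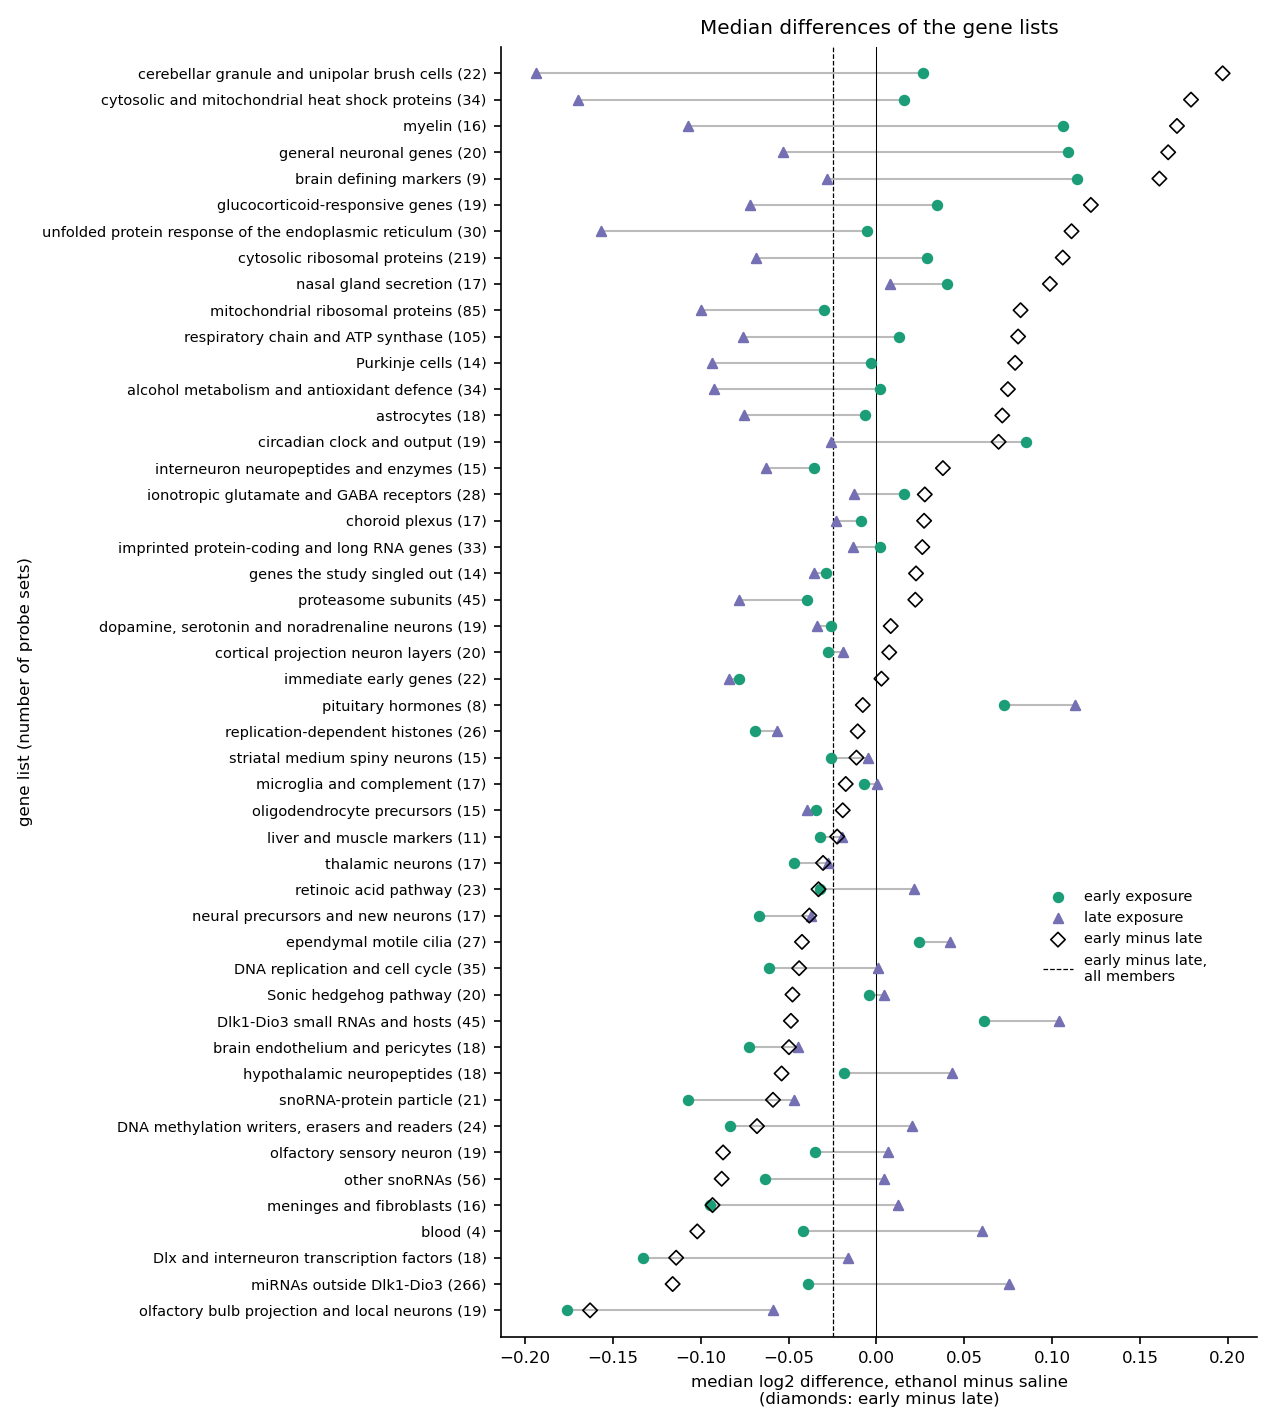
Median log2 difference over the probe sets (horizontal axis) of each of 48 gene lists (vertical axis, with the number of probe sets) for ethanol minus saline after early (green circles) and late exposure (purple triangles) and for early minus late (open diamonds), with a dashed line at the early-minus-late median of all members, -0.025. The list of cerebellar granule and unipolar brush cells has the highest diamond (0.20) and the olfactory bulb list the lowest (-0.16).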

How the data were processed

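The deposited series matrix held log2 expression values of 8 arrays, 1 per probe set. Per the study's methods the authors summarised the early arrays by RMA with quantile normalization and a GC adjustment, with software from Partek (6.6 per the submitters' processing notes), and the processing of the late arrays was taken to be the same. Build and annotation version of the probe sets were not given in the sources used here, and no probe set has coordinates. Because RMA pulls probe sets toward shared quantiles within a timing, no comparison of groups was made across timings, and the mean over 8 arrays served only to rank probe sets by level.

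A mean per group was fitted with limma 3.58.1 (R 4.3.3) to 23410 probe sets, without a block, and the early-minus-late contrast was tested 2-sided with Benjamini-Hochberg adjustment. The nominal thresholds (unadjusted p under 0.05, 1.2-fold) are those of the study's methods. The fit had 4 residual and 4.28 prior degrees of freedom. The smallest unadjusted p was 0.000473. Replicates were separate pools, so p-values measure the spread between pools, and with 2 arrays a group their number limits the precision. Probe sets without a symbol (12146, 34.2%) were not tested, and those with several symbols (1621) were tested but not described. No RefSeq record changed a symbol (21698 gene identifiers found).

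Genes named were, above background at both timings, the 15 per direction with the smallest p past the nominal thresholds and the 10 with the largest difference among those apart in opposite directions at the 2 timings, then up to 4 per list by p and the genes singled out in the study. Members named to complete a count of a list fall outside this rule and were chosen after their values were seen. The members and the lists were chosen with earlier results of these data known. Alternatives were an unmoderated test, a replicate block, array weights by timing, an intensity trend, centring, quantile and loess normalization over 8 arrays, filters on low values, every probe set, 1 probe set per gene and leaving out each array. Chosen after seeing the data were a crossed block and values relative to the level decile. Scripts were tested on simulated data. Same-numbered arrays had residual correlations of 0.466 early and -0.464 late, so the numbers were not taken as pairs.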

Additional observations from a re-analysis of the deposited data

Results flagged for a closer look

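Both ethanol arrays lay on one side of both saline arrays after early exposure and on the other side after late exposure for 898 of the 23410 tested probe sets (3.84%). The following 34 are those among the 85 probe sets described with their values above, and they are listed because of that opposite separation. The rule for naming genes took some of them for this separation, so their number is no result. The early-minus-late difference itself was tested with limma and had an adjusted p of 1 in each case. Groups of 2 arrays do not allow a test for a single array far from the rest.

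Higher in early and lower in late ethanol were Zic2 (0.70), Ywhah (0.57), Zcchc24 (0.57), Car4 (0.55), Med28 (0.50), Rprl2 (0.44), Hacd2 (0.43), Xkr6 (0.43), Il16 (0.41), Cbfa2t3 (0.40), Trf (0.38), Mobp (0.35), Mbp (0.34), Galnt7 (0.34), Nefl (0.27) and Etv1 (0.22), where each value is the early-minus-late difference in log2 units.

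Lower in early and higher in late ethanol were Btnl5-ps (-0.97), Frmd7 (-0.87), Snora44 (-0.68), Rian (-0.63), Snord14e (-0.58), Tmem42 (-0.56), Adamts3 (-0.54), Ms4a15 (-0.53), Mir186 (-0.48), Sfmbt1 (-0.46), Usp27x (-0.45), Mir412 (-0.41), Bcap29 (-0.41), Dnmt3aos (-0.40), Nkain3 (-0.37), Stxbp6 (-0.36), Ppp3cc (-0.36) and Fen1 (-0.26). Of these, Mir412 and Fen1 were at background at both timings and Snora44 at the late timing.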

How the results depend on the processing

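The count of 465 probe sets past the nominal thresholds was 234 in the unmoderated test, 213 without the lowest 50% of probe sets, and 854 with every probe set, where 35556 were tested. Leaving out 1 array gave counts from 233 to 1284, and adjusted calls from 0 to 5. The 5 came without early ethanol replicate 2. Elsewhere 0 probe sets had an adjusted p under 0.05. With the replicate number as a block the count was 582, and the adjusted count 0, and with the late numbers crossed it was 1099, a pairing chosen after seeing the data. The early numbers deviated together and the late ones apart, so the labels share only a number. Positive calls were 195 of 465, 144 of 470 after quantile normalization, 139 of 213 without the lowest 50% of probe sets and 179 of 356 relative to the level groups. Meg3 (0.0721) had -0.0747 after quantile and -0.049 after loess normalization and -0.0104 relative to the level groups, and ran from -0.0096 to 0.154 with 1 array left out, below 0 without early saline replicate 1. Mir679 (-0.163) ran from -0.456 to 0.129 and was above 0 without late ethanol replicate 1 or late saline replicate 2. The cause was not tested. With 2 pools a group, and 10997 of 21789 members above background at both timings, small differences were not detectable.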

Other observations

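Srsy, a gene of many copies on the Y chromosome, was chosen after its values were seen. Its 19 probe sets had early-minus-late differences from 1.04 to 1.31 with a median of 1.08, and 0 passed the nominal thresholds, since the standard errors ran from 0.987 to 1.21. The median level of the 19 was 7.45 and 8.80 in early ethanol, 6.96 and 8.11 in early saline, 9.10 and 7.85 in late ethanol and 7.77 and 10.2 in late saline. The replicates of each group were more than 1 log2 unit apart, and the groups overlapped at both timings. How far its copies share signal was not tested.

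Without early ethanol replicate 2, 5 probe sets passed the adjusted threshold in limma, all with a positive difference. Obp2a, Bpifa1 and Bpifb9a, secreted proteins of nasal glands, were 3 of them, and the other 2 carried several symbols. That fit rests on the single remaining early ethanol array, which is assumed to vary like the other groups.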
